A study of Mus musculus with 12 samples.

Results

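The genes described here encode 10 transcription factors of the AP-1 and early growth response (EGR) families. They were chosen by symbol, as Fos, Fosb, Fosl1, Fosl2, Jun, Junb, Jund, Atf3, Egr1 and Egr2, and matched to the count table through the GENCODE annotation of GRCm38. All 10 were found among the 48526 genes of the table, and all 10 were among the 15523 genes kept by a filter on low counts.

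AP-1 is a pair of basic leucine zipper proteins that binds a short DNA motif in promoters and enhancers. FOS proteins must pair with a partner such as a JUN protein, whereas JUN proteins can also pair with each other, and ATF3 joins the same network as a relative that often represses. The EGR proteins bind GC-rich sites through zinc fingers. Most of these genes are immediate-early genes, whose transcription is switched on by kinase cascades without new protein synthesis and usually fades soon afterwards, and in macrophages they act beside NF-kappaB on the genes for cytokines.

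RNA was measured in bone marrow-derived macrophages (BMDMs), which were grown from mouse bone marrow in medium conditioned by L929 cells. The cells were homozygous for a knockout of HSS9 (KO), a deletion at an enhancer upstream of Tnf in the germ line, or were wild type (WT). They were treated for 6 hr with PBS (untreated, UT) or with lipopolysaccharide (LPS), the bacterial cell wall component sensed by Toll-like receptor 4. Each of the 4 groups, WT UT, WT LPS, KO UT and KO LPS, had 3 libraries. The deletion is carried by every cell of the KO mice and is not limited to macrophages. The labels call the WT mice littermates, whereas the study's methods describe purchased C57BL/6 mice and KO mice kept as homozygous breeders, so a shared background is not assured. By the methods, all mice were young adult males, and the LPS dose of these cultures is not given in the sources used here. The labels do not say that the replicates came from separate mice, so the p-values measure the spread between these libraries, which may be technical.

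The 12 libraries held between 26154533 and 36423921 counts. Gene counts do not measure the deletion itself, so Tnf was used to check the labels. Tnf had 19902 to 22172 counts in the WT LPS libraries and 11003 to 11974 in the KO LPS libraries, and it was lower in KO after LPS (log2 fold change -1.04, edgeR adjusted p 2.76e-10). The 10 macrophage markers summed to between 28414 and 35136 CPM (a count scaled to a common library size by the TMM method of edgeR), and all 10 were detected. Of the markers of other cells, B cell genes summed to at most 1.79 CPM and T cell genes to at most 3.44 CPM, with Cd3g at 0 counts in 3 of the 4 groups. Dendritic cell genes summed to between 21.8 and 34.3 CPM. Small structured RNAs (snRNA, snoRNA and similar classes) took 3.00 to 3.25% of counts in WT UT, 4.04 to 6.88% in WT LPS, 6.62 to 7.83% in KO UT and 3.23 to 3.39% in KO LPS, and this share is given again beside the genes that moved with it.

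Junb, which encodes a JUN protein that often restrains growth, was the most abundant of the 10 in every group. As exon length differs between genes, levels were compared between genes as CPM per kilobase of exon. On this scale Junb was at a mean of 187 in WT UT, 247 in WT LPS, 231 in KO UT and 201 in KO LPS. Atf3 was second in WT LPS and KO LPS, at 162 and 171 CPM per kilobase. In UT cells Atf3 and Fos lay side by side, at 92.0 and 90.2 CPM per kilobase in WT and 93.6 and 96.1 in KO, and their libraries overlapped.

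Fosl2 was at 18.6 to 27.9 CPM per kilobase over the group means, above Fos in WT LPS and below it in the other 3 groups. Jund was at 9.79 to 18.1 and Jun at 5.003 to 10.7 CPM per kilobase. In KO UT the libraries of Fosl2 and Jund overlapped. Egr2 was at 0.856 to 1.499 and Egr1 at 0.438 to 0.604 CPM per kilobase. Fosl1 did not exceed a mean of 0.422, and in WT LPS its libraries overlapped those of Egr1. Fosb went from 3.90 CPM per kilobase in WT UT to 0.0845 in WT LPS, where it was the lowest of the 10.

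**Figure D1:**
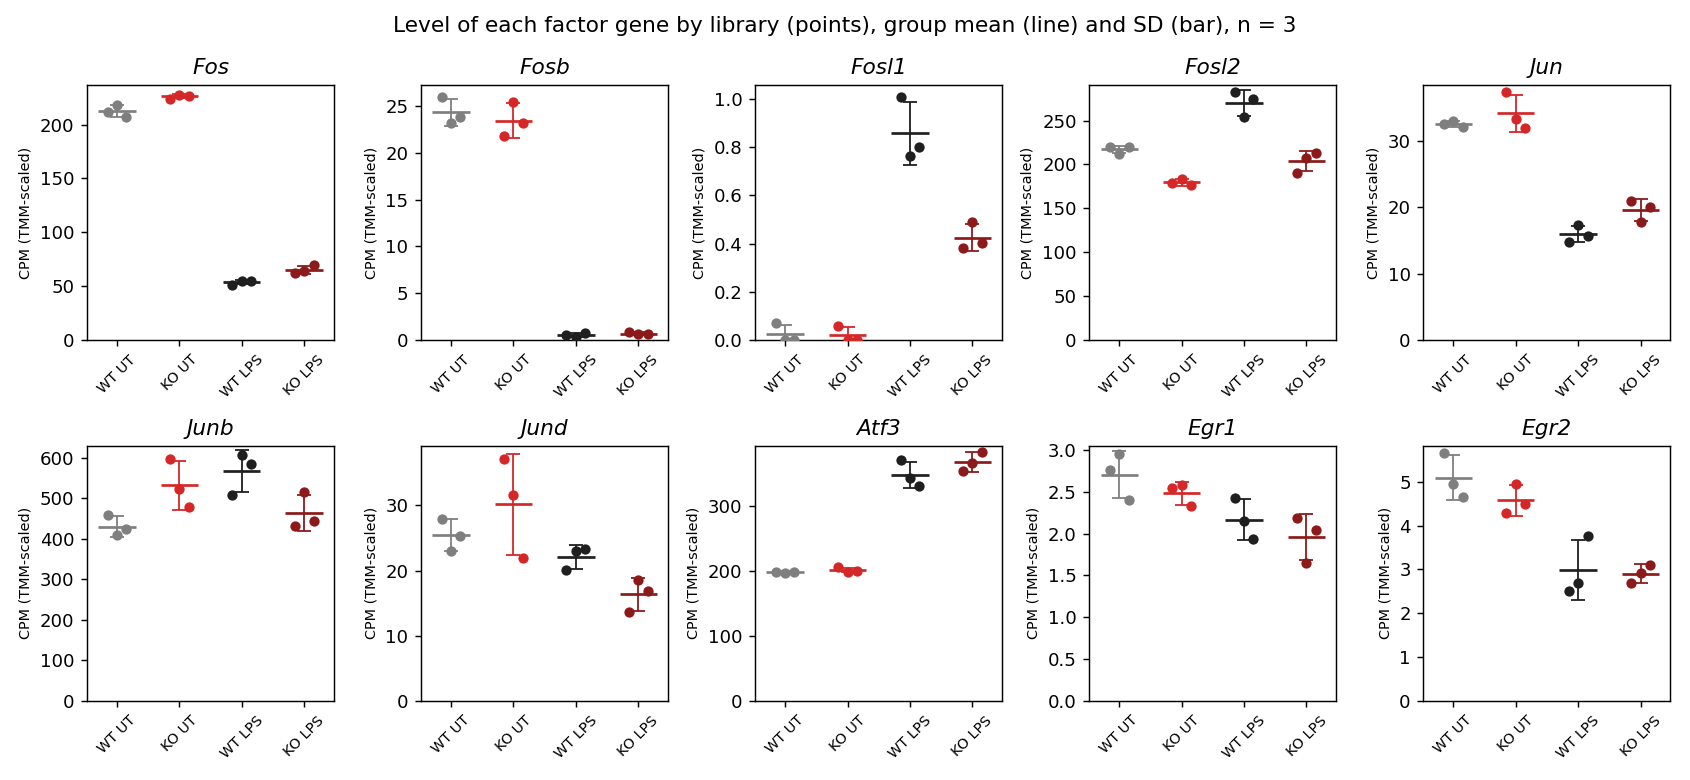
Each panel plots 1 gene, with TMM-scaled CPM on the y axis and the 4 groups on the x axis; points are libraries, lines are means and bars are SDs (n = 3). Fos, Fosb and Jun are lower in both LPS groups than in both UT groups, Atf3 and Fosl1 are higher, and the means of Junb and Fosl2 do not order the groups by treatment.

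The promoters of the genes that follow are shown because AP-1, EGR and serum response factor are known to act on the genes of these families. RefSeq promoters of the GRCm38.p6 assembly were searched on both strands over the 250 bases before each start for the AP-1 site TGANTCA, the cyclic AMP response element TGACGTCA, the EGR sites GCGTGGGCG and GCGGGGGCG, and the CArG box bound by serum response factor. Of 32851 promoters, 6.75% held TGANTCA, 1.55% held TGACGTCA, 0.536% held GCGTGGGCG, 2.57% held GCGGGGGCG and 1.47% held a CArG box. A start was matched for 8 of the 10 genes, all but Fosl1 and Egr1. GCGGGGGCG was found in Fosb, from 50 to 42 bases before the start, and in Fosl2, from 79 to 71 bases before it. A CArG box lay from 72 to 63 bases before the Egr2 start at position 67537869 on chromosome 10. Egr2 has 5 starts in this table, and another CArG box stood at the same distance from the start at 67537566. The promoters of Fos, Jun, Junb, Jund and Atf3 held none of these letters in this window. The 100 bases before the start are printed for the 3 genes that were called lower with LPS in WT (Fos, Fosb and Jun) and for the other two with a match (Fosl2 and Egr2), each 5′ to 3′ on the strand of the gene, with a match in capitals. The Fosb, Fosl2, Egr2 and Atf3 windows lie wholly or partly inside the wider GENCODE gene models. The Jund start lies upstream of its GENCODE model, so the bases just before that model were not searched. A match is a description of the letters and not evidence of binding.
Fos, chr12:85473790-85473889, plus strand: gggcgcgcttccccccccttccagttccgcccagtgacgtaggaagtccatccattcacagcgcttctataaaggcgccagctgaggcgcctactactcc
Fosb, chr7:19310046-19310145, minus strand: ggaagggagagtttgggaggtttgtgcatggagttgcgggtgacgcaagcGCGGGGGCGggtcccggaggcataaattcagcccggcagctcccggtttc
Jun, chr4:95052223-95052322, minus strand: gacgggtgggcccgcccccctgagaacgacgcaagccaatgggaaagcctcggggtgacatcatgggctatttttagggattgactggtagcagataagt
Fosl2, chr5:32136372-32136471, plus strand: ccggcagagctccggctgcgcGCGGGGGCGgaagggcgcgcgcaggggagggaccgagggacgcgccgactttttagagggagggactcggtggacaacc
Egr2, chr10:67537769-67537868, plus strand: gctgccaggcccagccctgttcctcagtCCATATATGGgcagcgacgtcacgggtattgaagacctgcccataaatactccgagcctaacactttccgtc

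The first comparison asked how the factors stood after 6 hr of LPS in WT and in KO cells. Genes past an adjusted p of 0.05 in the edgeR quasi-likelihood test and past an absolute log2 fold change of 1 are described as called, and those past the adjusted p alone as having risen or fallen. In WT, 4 of the 10 were called against 37.8% of all genes tested, with 1 higher (Fosl1, background 19.1%) and 3 lower (Fos, Fosb and Jun, background 18.7%). Fosl1 met the filter on low counts only through its LPS libraries, so its calls in WT and KO are given as a description, and of the other 9 members 3 were called in WT and 2 in KO. At any fold change 8 of the 10 passed, against 73.3% of all genes, with 4 higher (38% of all genes) and 4 lower (35.3%). In KO, 3 were called against 37% of all genes, Fosl1 higher (17.7% of all genes) and Fos and Fosb lower (19.3%). There 9 passed at any fold change against 72.8%, with 3 higher (35.1%) and 6 lower (37.7%). The LPS and UT libraries did not overlap for 8 of the 10 in WT, against 74.8% of all genes, and for 9 in KO, against 76%. These shares are near the background, so the number of responding factors is not particular to them. The median log2 fold change of the 10 was -0.26 in WT, beside 0.05 over all genes, and -0.50 in KO, beside -0.06.

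Among the FOS genes, Fos and Fosb fell, Fosl2 rose, and Fosl1 had over 3 counts only in the LPS libraries. Fos (ENSMUSG00000021250.13, chromosome 12, 85473890 to 85477273), the founding immediate-early gene, was at 212, 218 and 207 CPM in WT UT and at 51.5, 55.2 and 54.5 CPM in WT LPS. In KO it was at 224, 228 and 227 CPM without LPS and at 61.8, 63.8 and 69.3 CPM after it. Every LPS library thus lay far below every UT library. Fos fell 3.95-fold in WT (log2 fold change -1.98 ± 0.0581 SE, adjusted p 4.57e-18 by edgeR) and 3.48-fold in KO (log2 fold change -1.80 ± 0.0573 SE, adjusted p 1.95e-17 by edgeR).

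Fosb (ENSMUSG00000003545.3, chromosome 7, 19302696 to 19310051), whose protein is the closest relative of FOS, showed the deepest fall of the 10. It had 1111, 1052 and 1122 counts in WT UT and 15, 6 and 16 in WT LPS. In KO it had 753, 867 and 916 counts without LPS and 22, 16 and 17 after it. The fall was 45.9-fold in WT (log2 fold change -5.52 ± 0.170 SE, adjusted p 1.03e-17 by edgeR) and 34.0-fold in KO (log2 fold change -5.09 ± 0.158 SE, adjusted p 1.22e-17 by edgeR). With 6 to 22 counts in the LPS libraries, the size of this fold rests on few counts.

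Fosl1 (ENSMUSG00000024912.5, chromosome 19, 5447547 to 5455946) encodes FRA-1, a FOS protein without the strong activation domain. It had 3, 0 and 0 counts in WT UT and 2, 0 and 0 in KO UT, all at or under the floor of 3 counts taken as the limit of detection. After LPS the WT libraries held 27, 17 and 17 counts of it and the KO libraries 10, 13 and 11. Set against that floor in each UT library, Fosl1 was at least 12.8-fold higher with LPS in WT and at least 5.08-fold higher in KO. As the filter kept it through the LPS libraries alone, no p is given for this difference. It stayed a rare transcript, at 0.857 CPM in WT LPS and 0.425 CPM in KO LPS. Its span overlaps that of Ccdc85b on the other strand over 2767 bases. Shared exon bases were not measured and it is not stated whether the counting used strand, so whether reads of the pair were told apart is not known. Ccdc85b had 8 to 173 counts.

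Fosl2 (ENSMUSG00000029135.10, chromosome 5, 32135801 to 32157842), which encodes FRA-2, was at 219.7, 212 and 219.6 CPM in WT UT and at 283, 254 and 274 CPM in WT LPS. In KO it was at 179, 183 and 176 CPM without LPS and at 191, 208 and 214 CPM after it. The LPS libraries lay above the UT libraries in each genotype. The rise was 1.25-fold in WT (log2 fold change 0.32 ± 0.0568 SE, adjusted p 3.84e-05 by edgeR) and 1.14-fold in KO (log2 fold change 0.18 ± 0.0571 SE, adjusted p 0.00658 by edgeR). Its sign depended on the scaling of the libraries, since without TMM scaling the values were -0.35 in WT and -0.32 in KO and with upper-quartile scaling the KO value was -0.00086. With the small RNA share as a covariate the KO rise was 0.12 and did not pass (adjusted p 0.434 by edgeR). Without TMM scaling the median of all genes moved by -0.66 in WT and -0.51 in KO, so that Fosl2 still lay above it.

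The makeup of the FOS transcripts therefore shifted with LPS. Per kilobase of exon, the 4 FOS genes summed to 117 CPM in WT UT and 118 in KO UT, and to 51.3 in WT LPS and 49.0 in KO LPS. Fos made up 77.4% ± 0.814 (SD, n = 3) of this sum in WT UT and 44.6% ± 2.24 (SD, n = 3) in WT LPS. Fosl2 went from 19.3% ± 0.654 to 54.4% ± 2.09 over the same pair of groups, and so passed Fos. In KO, Fos made up 81.2% ± 0.346 (SD, n = 3) without LPS and 56.4% ± 0.780 after it, and Fosl2 15.7% ± 0.220 and 43.0% ± 0.750. After LPS, then, Fosl2 led in the WT libraries and Fos in the KO libraries. The order in KO depended on the length used, since with the longest transcript in place of all exons Fos stood at 49.4% and Fosl2 at 49.98%. In WT LPS that length gave 37.8% for Fos and 61.3% for Fosl2.

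**Figure D2:**
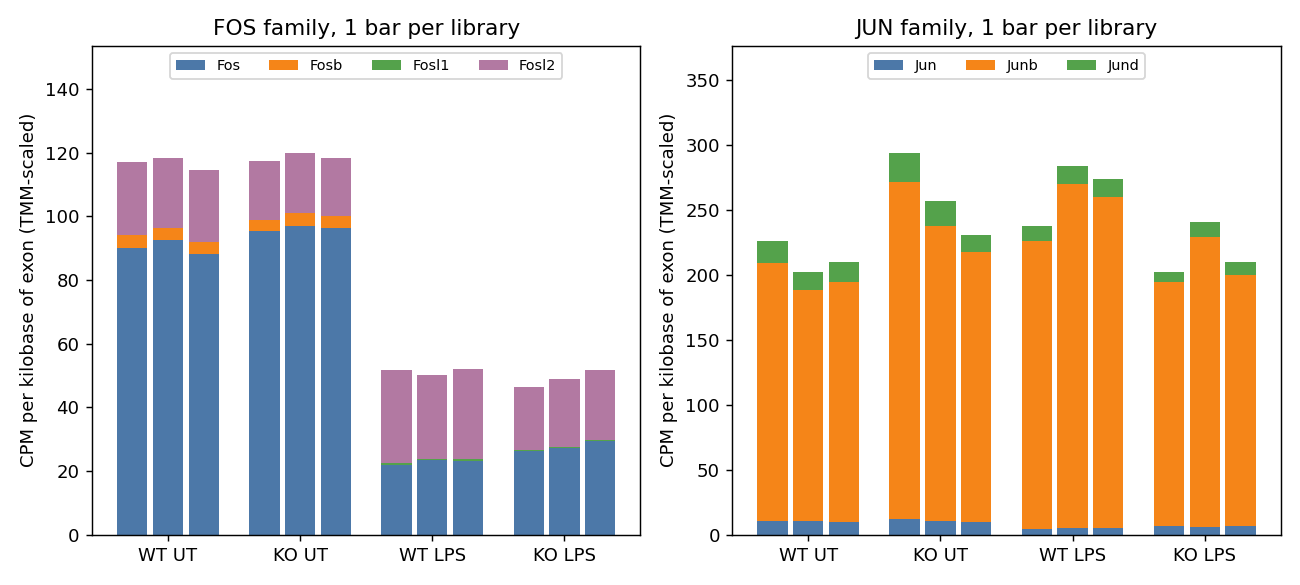
Stacked bars give CPM per kilobase of exon (y axis) for the FOS genes (left) and the JUN genes (right), with 1 bar per library and 3 bars per group (x axis). The FOS sum goes from means of 117 (WT UT) and 118 (KO UT) to 51.3 (WT LPS) and 49.0 (KO LPS) and changes from mostly Fos to a mixture of Fos and Fosl2, while Junb fills most of every JUN bar.

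Among the JUN genes only Jun passed the adjusted p in both genotypes under every alternative tried. Jun (ENSMUSG00000052684.4, chromosome 4, 95049034 to 95052222), whose protein is the partner of FOS in the classical AP-1 pair, was at 32.6, 33.0 and 32.2 CPM in WT UT and at 14.8, 17.3 and 15.7 CPM in WT LPS. In KO it was at 37.4, 33.4 and 31.9 CPM without LPS and at 21.01, 17.8 and 20.1 CPM after it. The LPS libraries were all below the UT libraries. Jun fell 2.05-fold in WT (log2 fold change -1.03 ± 0.0819 SE, adjusted p 2.08e-10 by edgeR) and 1.74-fold in KO (log2 fold change -0.80 ± 0.0797 SE, adjusted p 8.85e-09 by edgeR). The WT value lay at the fold change threshold and was -0.98 without WT LPS replicate 1 and -0.96 over protein-coding genes alone, which ends the call but not the adjusted p. Its antisense gene Junos, which shares 689 bases with it, had 13 to 49 counts.

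Junb (ENSMUSG00000052837.6, chromosome 8, 84974484 to 84978718) was at 458, 409 and 425 CPM in WT UT and at 509, 608 and 586 CPM in WT LPS. In KO it was at 597, 522 and 478 CPM without LPS and at 431, 515 and 445 CPM after it. The WT LPS libraries were all above the WT UT libraries, whereas in KO the libraries overlapped and the mean went the other way. Junb rose 1.32-fold in WT (log2 fold change 0.40 ± 0.0814 SE, adjusted p 1.65e-04 by edgeR) and fell 1.15-fold in KO (log2 fold change -0.20 ± 0.0813 SE, adjusted p 0.0324 by edgeR). The WT rise became -0.27 without TMM scaling and, at 0.10, lost its adjusted p (0.434) when the small RNA share entered as a covariate. The KO fall became 0.24 with that covariate and lost its adjusted p without KO LPS replicate 1, KO LPS replicate 3 or KO UT replicate 1, with DESeq2, with RLE scaling and over protein-coding genes alone, with values from -0.17 to -0.11. The span of its neighbour Prdx2 overlaps 351 bases on the other strand, and Prdx2 had 7457 to 9983 counts. Shared exon bases were not measured and the strand setting is not stated, so whether this affected the Junb counts is not known.

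Jund (ENSMUSG00000071076.6, chromosome 8, 70698949 to 70700616), the JUN gene known for steady expression, was at 28.0, 23.0 and 25.4 CPM in WT UT and at 20.0, 23.0 and 23.3 CPM in WT LPS. In KO it was at 37.2, 31.6 and 21.8 CPM without LPS and at 13.6, 18.5 and 16.9 CPM after it. The libraries overlapped in WT and not in KO, and the KO UT libraries were the most scattered. In WT the log2 fold change was -0.21 (95% interval -0.50 to 0.09, edgeR adjusted p 0.193), and it passed under 5 of 22 alternatives, with -0.26 in a fit without the filter on low counts and in one of the WT groups alone, -0.39 with upper-quartile scaling, -0.69 with the small RNA covariate and -0.87 without TMM scaling. In KO Jund fell 1.84-fold (log2 fold change -0.88 ± 0.143 SE, adjusted p 1.07e-05 by edgeR), a value that was -0.15 (edgeR adjusted p 0.724) with the small RNA covariate and -1.08 without KO UT replicate 3. Junb made up 88.0 to 93.1% of the JUN transcripts per kilobase over the group means, and Jun did not exceed 4.82% or Jund 7.16%.

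Atf3 (ENSMUSG00000026628.13, chromosome 1, 191170296 to 191218039), a stress-response gene known to limit cytokine transcription in macrophages, rose in both genotypes. It was at 198, 197 and 199 CPM in WT UT and at 370.4, 344 and 330.5 CPM in WT LPS. In KO it was at 206, 199 and 199.8 CPM without LPS and at 353, 367 and 384 CPM after it. The UT libraries of both genotypes lay close together and far below all LPS libraries. The rise was 1.76-fold in WT (log2 fold change 0.81 ± 0.0546 SE, adjusted p 1.17e-11 by edgeR) and 1.83-fold in KO (log2 fold change 0.87 ± 0.0547 SE, adjusted p 3.88e-12 by edgeR). It stayed positive under all 22 alternatives, down to 0.15 in WT without TMM scaling.

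The EGR genes were low. Egr2 (ENSMUSG00000037868.15, chromosome 10, 67535475 to 67542188), which takes part in macrophage differentiation, had 242, 225 and 219 counts in WT UT and 67, 60 and 80 in WT LPS. In KO it had 148, 169 and 178 counts without LPS and 70, 78 and 85 after it. In CPM every LPS library was below every UT library of the same genotype, at 2.497 to 3.77 against 4.66 to 5.66 in WT and 2.68 to 3.11 against 4.28 to 4.96 in KO. Egr2 fell 1.72-fold in WT (log2 fold change -0.78 ± 0.164 SE, adjusted p 2.26e-04 by edgeR) and 1.57-fold in KO (log2 fold change -0.65 ± 0.164 SE, adjusted p 0.00126 by edgeR). The KO value was 0.15 (edgeR adjusted p 0.818) with the small RNA covariate.

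Egr1 (ENSMUSG00000038418.7, chromosome 18, 34859823 to 34864984), the best known EGR gene of the immediate-early response, had 118, 134 and 113 counts in WT UT and 65, 48 and 41 in WT LPS. In KO it had 88, 88 and 92 counts without LPS and 57, 44 and 56 after it. On the CPM scale the groups stood at 2.71 and 2.17 in WT and at 2.49 and 1.96 in KO. The WT libraries overlapped and the KO libraries did not. The log2 fold change was -0.31 in WT (95% interval -0.70 to 0.08, edgeR adjusted p 0.137) and -0.34 in KO (95% interval -0.73 to 0.06, edgeR adjusted p 0.114). At this depth no change was detectable with TMM scaling, although both values passed without it, at -0.97 and -0.85, and with upper-quartile scaling, at -0.50 and -0.52.

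**Figure D3:**
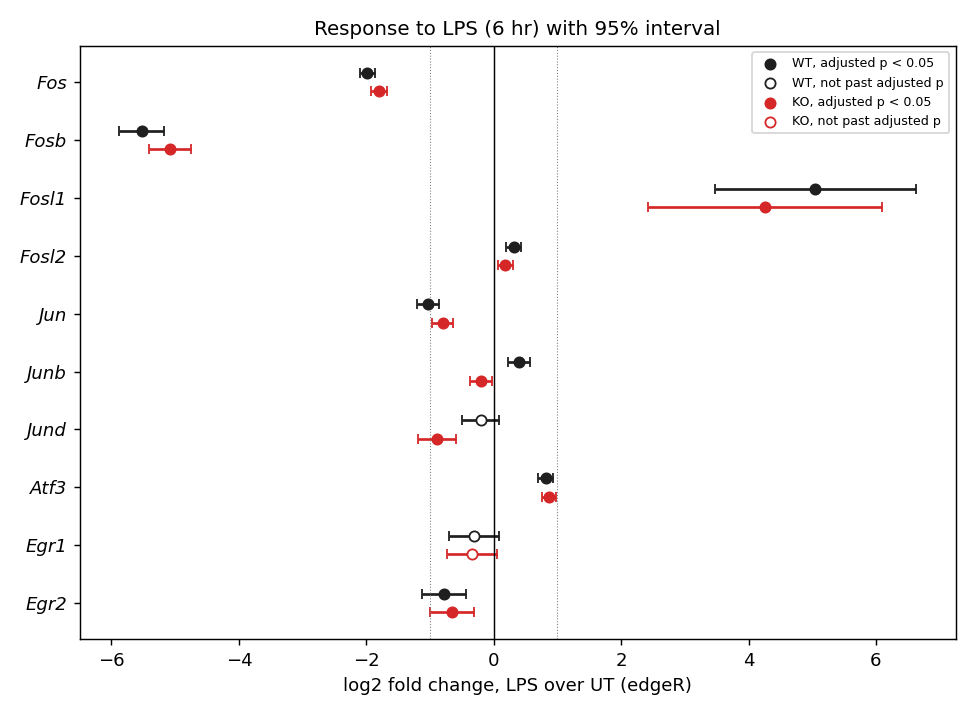
The log2 fold change of LPS over UT (x axis) is plotted for each gene (y axis) with its 95% interval, in black for WT and red for KO; filled points passed an edgeR adjusted p of 0.05 and dotted lines mark the fold change threshold. Fos and Fosb lie to the left of both dotted lines and Fosl1 to the right, and Junb is the gene whose WT and KO points stand on opposite sides of 0 with both filled.

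Other genes of the same circuits were read from lists written for them, beside a background in WT of 19.1% of all genes called higher and 18.7% lower (KO 17.7% and 19.3%) and a median of 0.05 over all genes. Of 22 other basic leucine zipper genes, 8 were called higher and 4 lower with LPS in WT (KO 9 and 4), with a median log2 fold change of 0.79 in WT. Batf3, among the 4 lower in each genotype, had 25 to 41 counts in WT UT and 2 to 8 in WT LPS. It met the filter on low counts only through UT libraries, so its calls are given as a description. Batf, an AP-1 partner that lacks an activation domain, went from 3.52 ± 0.176 to 122 ± 11.3 CPM in WT (SD, n = 3, log2 fold change 5.11, edgeR adjusted p 3.11e-22). Batf2, its interferon-induced relative, rose by 4.40 on the same scale. Cebpa, a factor of myeloid differentiation, fell by 2.82.

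Of the 19 other immediate-early genes, 6 were called higher and 7 lower in WT (KO 5 and 6), with a median log2 fold change of 0.02 in WT. Gadd45b, a stress-response gene, rose from 38.3 ± 1.35 to 377 ± 29.9 CPM in WT (SD, n = 3, log2 fold change 3.30, edgeR adjusted p 5.59e-21), and Ier3, known for effects on cell survival, rose by 3.16 on the log2 scale. Nr4a2, an orphan nuclear receptor, fell from 42.2 ± 0.725 to 2.44 ± 0.603 CPM (SD, n = 3, log2 fold change -4.09, edgeR adjusted p 1.05e-17). Klf4, a zinc finger factor of monocytes, fell by 3.04.

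Upstream of these genes, the MAP kinase list had 6 of 21 members called higher and 2 lower in WT (KO 6 and 1). Map3k8, the kinase that couples Toll-like receptors to ERK, had a WT log2 fold change of 2.67, and Mapkapk2, a kinase downstream of p38, one of 2.45. Map3k1 fell by 1.59 and Rps6ka5, a kinase of histones and CREB, by 1.04. Of the 6 genes for serum response factor and its partners, 1 was called in WT, Mrtfa, which fell by 1.496. Of 4 relatives of the EGR genes 3 could be tested, and Nab1, which encodes a corepressor of EGR proteins, rose by 1.04 (edgeR adjusted p 6.38e-11) while Egr3 had 14 to 26 counts in WT UT and 0 to 3 in WT LPS. Egr3 met the filter on low counts only through UT libraries, so its difference is given as a description. Of 10 heat shock genes 3 were called higher in WT and 5 in KO. Hspa1a and Hspa1b rose by 2.36 and 2.96 in WT, and as near-identical copies their reads may have been split between them.

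The second comparison asked whether the KO differed from WT in these factors. After LPS, 0 of the 10 were called by edgeR, against 1.25% of all genes, and 0 by DESeq2. At any fold change 4 passed the adjusted p, against 14.3% of all genes, with Fos and Jun higher in KO (7.78% of all genes) and Fosl2 and Junb lower (6.54%), and 5 had an unadjusted p below 0.05, against 28.5% of all genes. Without LPS, 0 were called by either tool, against 1.82% of all genes, and 2 passed at any fold change, against 23.8%, with Junb higher in KO (14.1% of all genes) and Fosl2 lower (9.69%). The same 2 had an unadjusted p below 0.05, against 34.3% of all genes. The libraries did not overlap for 5 of the 10 after LPS, against 29.1% of all genes, and for 3 without LPS, against 40.8%. The largest difference that passed was 1.33-fold, for Fosl2 after LPS.

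Fosl2 was lower in KO under both treatments. Its KO LPS libraries, at 191 to 214 CPM, lay below the WT LPS libraries, at 254 to 283 CPM, and its KO UT libraries, at 176 to 183 CPM, lay below the WT UT libraries, at 212 to 219.7 CPM. It was 1.33-fold lower after LPS (log2 fold change -0.41 ± 0.0572 SE, adjusted p 6.07e-05 by edgeR) and 1.21-fold lower without it (log2 fold change -0.27 ± 0.0568 SE, adjusted p 0.00104 by edgeR). The difference after LPS passed under all 22 alternatives, between -0.45 and -0.36. Without LPS it passed under 21, and with the small RNA covariate it was -0.21 (edgeR adjusted p 0.423).

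Fos was higher in KO after LPS, at 61.8 to 69.3 CPM against 51.5 to 55.2 CPM, and the libraries did not overlap (log2 fold change 0.27 ± 0.0582 SE, adjusted p 0.00317 by edgeR). This passed under all 22 alternatives. Without LPS its KO libraries also lay above the WT libraries, but the difference was small (log2 fold change 0.09, 95% interval -0.02 to 0.20, edgeR adjusted p 0.254). Jun was higher in KO after LPS, at 17.8 to 21.01 against 14.8 to 17.3 CPM (log2 fold change 0.30 ± 0.0863 SE, adjusted p 0.0239 by edgeR). This passed under 17 of 22 alternatives and was lost in a fit of the LPS groups alone and without WT LPS replicate 1, WT LPS replicate 3, KO LPS replicate 1 or KO LPS replicate 3, with an edgeR adjusted p of up to 0.11. Without LPS the KO and WT libraries of Jun overlapped (log2 fold change 0.07, 95% interval -0.09 to 0.23, edgeR adjusted p 0.558).

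For Atf3, Egr1, Egr2, Fosb and Fosl1 no difference passed the adjusted p in either treatment, and the intervals differed in width. Atf3 was the most tightly bounded, at 0.08 after LPS (95% interval -0.03 to 0.19) and 0.03 without it (95% interval -0.09 to 0.14). Egr2 was at -0.03 after LPS (95% interval -0.40 to 0.35) and Egr1 at -0.15 (95% interval -0.57 to 0.27). Fosb was at 0.38 after LPS (95% interval -0.27 to 1.03), where its counts were few, and at -0.05 without it (95% interval -0.25 to 0.14). Leaving out single libraries moved the Fosb value after LPS between 0.09 and 0.68. Fosl1 had 10 to 13 counts in KO LPS and 17 to 27 in WT LPS, and its libraries did not overlap, but the interval ran from -2.13 to 0.11 (log2 fold change -1.01, edgeR adjusted p 0.227).

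**Figure D4:**
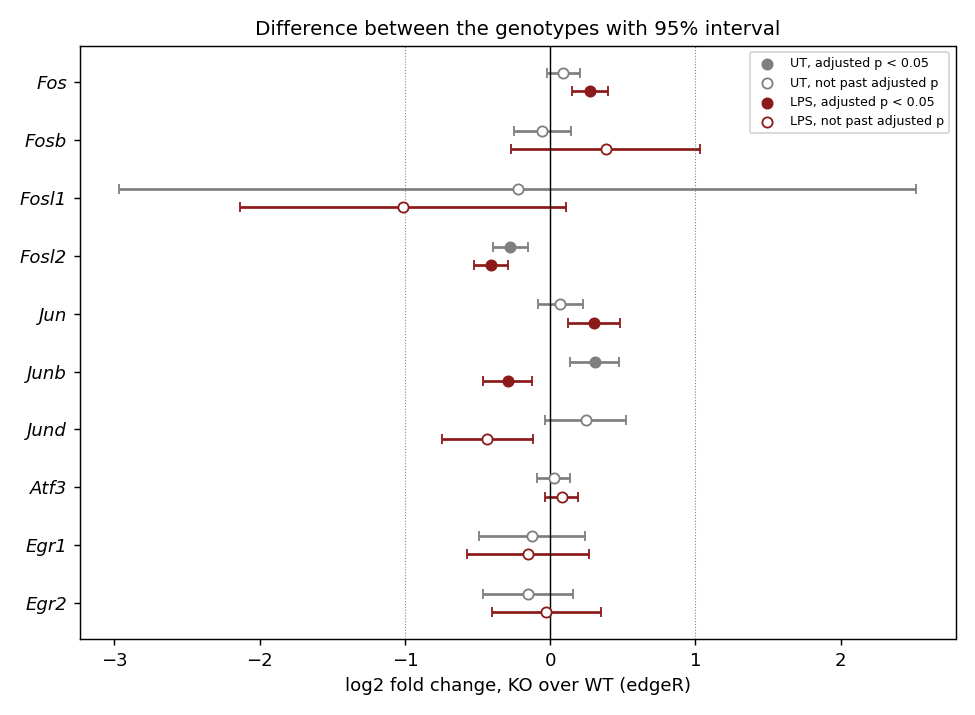
The log2 fold change of KO over WT (x axis) is plotted for each gene (y axis) with its 95% interval, in grey without LPS and dark red after LPS; filled points passed an edgeR adjusted p of 0.05. The filled points are Fosl2 in both treatments, Fos and Jun after LPS and Junb on opposite sides of 0.

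Markers of other cells differed between the genotypes in the same libraries. Of 8 stromal genes, 7 were called higher in KO after LPS and 2 without it, beside 1.25% and 1.82% of all genes called in either direction. Their summed level was 46.7 to 48.1 CPM in KO LPS against 27.8 to 30.8 in WT LPS. Without LPS it was 18.4 to 19.1 CPM in KO UT against 12.3 to 12.7 in WT UT. Of the 9 neutrophil genes 6 could be tested, and 4 were called higher in KO without LPS, beside the same 1.82% of all genes. Mpo, 1 of the 4, had 11 to 20 counts in KO UT and 1 to 4 in WT UT. It met the filter on low counts only through the KO UT libraries, so its call is given as a description. Without LPS the list summed to 42.8 to 48.6 CPM in KO against 20.5 to 22.03 in WT, while Ly6g was at 0 in all 4 groups. After LPS 0 of the 6 genes tested were called by edgeR, and 1 passed the adjusted p at any fold change. The sums then overlapped, at 67.3 to 76.8 CPM in KO and 50.5 to 79.7 in WT. The macrophage gene C1qa, a complement component, was called higher in KO in both treatments (log2 fold change 1.13 after LPS and 1.43 without it, edgeR adjusted p 2.06e-09 and 1.45e-11). The part of these cells in the differences of the factors was not tested, and in bulk RNA fewer cells of a type and less RNA per cell cannot be told apart.

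In the lists of related genes described for LPS above, from the basic leucine zipper to the heat shock genes, 2 genes were called between the genotypes. Ccn1, an immediate-early gene for a matrix protein, was at 2.05 ± 0.469 CPM in KO LPS and 0.573 ± 0.290 in WT LPS (SD, n = 3, log2 fold change 1.79, edgeR adjusted p 0.00134). The other, the small heat shock gene Hspb1, had 8 to 19 counts in KO UT and 0 to 7 in WT UT, and as it met the filter on low counts only through KO libraries, no p is given for it. Of the 22 other basic leucine zipper genes, 0 were called and 7 passed at any fold change after LPS, 3 higher and 4 lower in KO, against 14.3% of all genes (7.78% higher and 6.54% lower), among them Batf at -0.31 (edgeR adjusted p 0.00323). Of the 21 MAP kinase genes, 0 were called and 6 passed at any fold change after LPS, 4 higher and 2 lower in KO, against the same background. Of the 19 other immediate-early genes, 3 were higher and 7 lower in KO after LPS at any fold change, of 10 heat shock genes 2 and 1, of the 6 genes for serum response factor and its partners 1 and 1, and of the 3 EGR relatives tested 1 and 0. Without LPS, where 14.1% of all genes were higher and 9.69% lower, these counts were 6 and 4 for the immediate-early genes, 3 and 2 for the heat shock genes, 0 and 1 for serum response factor and its partners, 1 and 0 for the EGR relatives, 3 and 4 for the basic leucine zipper genes and 1 and 2 for the MAP kinase genes.

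The last comparison asked whether the response to LPS differed between the genotypes. None of the 10 was called by edgeR or DESeq2, against 2.16% of all genes, and 2 passed the adjusted p at any fold change, Junb and Jund, against 16.8% of all genes. Both were lower in KO, as were 9.5% of all genes, while 7.32% were higher. With an unadjusted p, 3 were below 0.05, against 29.1% of all genes, the third being Fos at 0.18 (edgeR adjusted p 0.127). Fos passed with DESeq2 at 0.26 (adjusted p 0.00557), and with edgeR under RLE scaling at 0.26 (adjusted p 0.0229) and without TMM scaling at 0.34 (adjusted p 0.00355). Without TMM scaling Jun passed as well, at 0.39 (edgeR adjusted p 0.0151). This comparison draws on the same libraries as the others and adds no independent evidence to them.

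The log2 response of Junb was lower in KO, with a difference of -0.60 (SE 0.115, adjusted p 9.99e-04 by edgeR). Between the genotypes Junb was higher in KO without LPS (log2 fold change 0.31 ± 0.0812 SE, adjusted p 0.00793 by edgeR), with no overlap of libraries, and below WT after LPS (log2 fold change -0.29 ± 0.0815 SE, adjusted p 0.0204 by edgeR), with the highest KO LPS library, at 515 CPM, above the lowest WT LPS library, at 509 CPM. The difference after LPS lost its adjusted p without WT LPS replicate 2, KO LPS replicate 1 or KO LPS replicate 3, and with the small RNA covariate it was -0.034 (edgeR adjusted p 0.894). That without LPS was lost without WT UT replicate 2 or KO UT replicate 1, without TMM scaling (0.15, edgeR adjusted p 0.137) and with the covariate, where it was -0.17 (edgeR adjusted p 0.652). The difference in response kept its adjusted p without any 1 of the 12 libraries, between -0.68 and -0.50.

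The log2 response of Jund was lower in KO as well, with a difference of -0.68 (SE 0.201, adjusted p 0.0235 by edgeR). Its KO UT libraries reached 37.2 CPM and its KO LPS libraries went down to 13.6 CPM. No difference between the genotypes passed for Jund within a treatment, at 0.25 without LPS (edgeR adjusted p 0.208) and -0.43 after LPS (edgeR adjusted p 0.0568). Some alternatives did pass, 6 of 22 after LPS, with values from -0.50 to -0.40, and 2 of 22 without LPS. Leaving out single libraries moved the value without LPS between 0.07 and 0.44, the latter without KO UT replicate 3 (edgeR adjusted p 0.00611), and after LPS it passed without KO UT replicate 1, KO UT replicate 3 or WT LPS replicate 1. With the small RNA covariate the values were -0.55 without LPS and -0.01 after it, and neither passed. The difference in response lost its adjusted p with DESeq2, without TMM scaling, and without WT UT replicate 2, WT LPS replicate 2, KO UT replicate 1, KO UT replicate 2 or KO LPS replicate 1, with values between -0.64 and -0.50. Gm11175, an antisense gene sharing 919 bases with Jund, had 10 to 61 counts.

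Within each treatment, the genotype with the higher mean of both genes, KO without LPS and WT after LPS, was also the one with the higher share of small structured RNAs. That share was highest in KO UT, at 6.62 to 7.83%, and at 3.23 to 3.39% in KO LPS it was close to the 3.00 to 3.25% of WT UT. With the log2 share as a covariate, the difference in response was 0.13 for Junb (SE 0.246, edgeR adjusted p 0.87) and 0.53 for Jund (SE 0.497, edgeR adjusted p 0.695). None of the 10 passed the adjusted p in the interaction or without LPS. Both SEs were larger than without the covariate. The share hardly varied within WT UT or KO LPS, so the covariate rested mostly on the WT LPS and KO UT libraries. As the share differs between the groups, genotype, treatment and share cannot be fully told apart in these libraries.

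**Figure D5:**
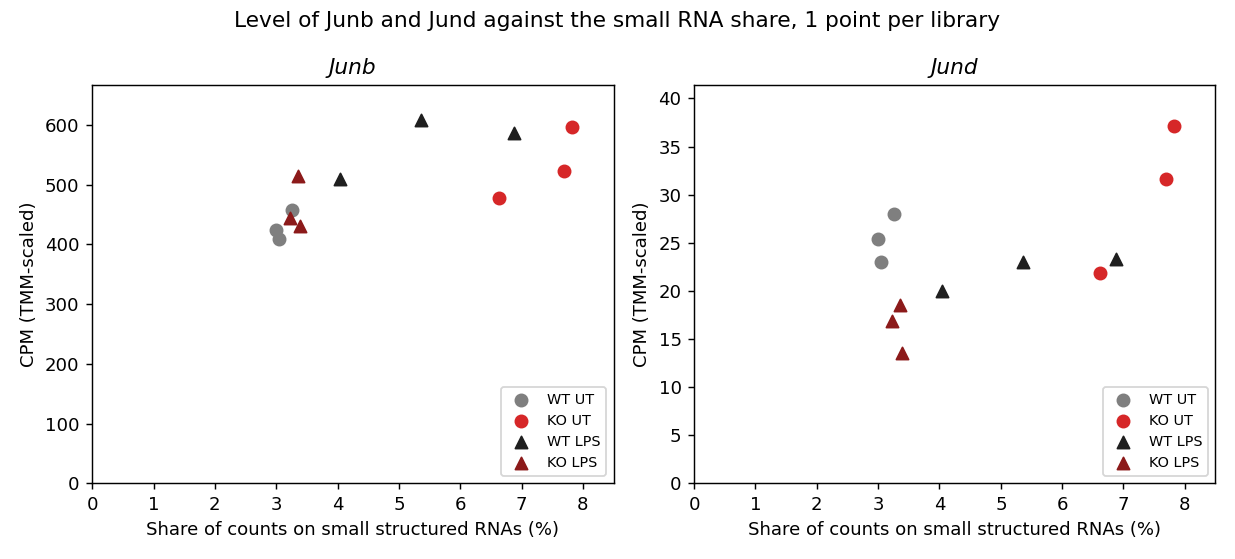
The level of Junb (left) and Jund (right) in TMM-scaled CPM (y axis) is plotted against the percentage of counts on small structured RNAs (x axis), with 1 point per library, circles for UT and triangles for LPS. The 3 KO UT libraries lie at the highest shares with WT LPS, and the KO LPS libraries lie beside WT UT at shares near 3%.

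The protein-coding gene whose pattern over the 12 libraries was nearest to a factor was found by the Euclidean distance between mean-centred log2 CPM values, over 9084 or 9085 candidates with a mean of at least 5 CPM. Atf3 was nearest to Snw1 (distance 0.133), with Snw1 at 72.3 CPM in WT UT and 126 in WT LPS. Junb was nearest to Arrdc1 (0.258), at 57.9 CPM in KO UT and 53.0 in KO LPS. Fosl2 was nearest to Pogz (0.279), Jun to Ctnnbip1 (0.302), Egr2 to Gcfc2 (0.325) and Egr1 to Cherp (0.362). Jund (Ubald1, 0.564), Fosb (Slc46a3, 0.940) and Fosl1 (Mybpc3, 1.14) had no near match at this scale.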

How the data were processed

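Total RNA had been made into strand-specific, globin-depleted libraries. The authors checked the reads with FastQC 0.11.9, mapped the read pairs to GRCm38 by HISAT2 2.1.0 and assigned them to genes by featureCounts 2.0.0, per the submitters' processing notes and the study's methods. The deposited values are raw counts per gene. The annotation release and strand setting are not given in the sources used here. Symbols came from GENCODE M21 of GRCm38, which matched 48144 of 48526 identifiers, and 382 were not matched. Of all genes, 22406 had 0 counts throughout.

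Genes were kept by filterByExpr (minima of 10 counts and of 15 in total), leaving 15523 genes that hold 99.96% of counts. The 12 libraries, grouped by their labels, entered 1 edgeR 4.0.16 model of the 4 group means (TMM scaling, quasi-likelihood test, limma 3.58.1, R 4.3.3), with 5 contrasts and Benjamini-Hochberg adjustment over all genes kept. The study used DESeq2 on pairs of groups with the same thresholds, adjusted p below 0.05 and absolute log2 fold change above 1. The common biological variation between libraries, as a coefficient, was 0.0712. A value per kilobase is TMM-scaled CPM divided by the length of all exons of a gene. Intervals are 95%. They and each SE of a log2 fold change were derived from the F statistic of the edgeR test, and so include the spread between libraries. The floor of 3 counts covers counting error only. The prior count for log2 CPM was 2. Figures used matplotlib 3.10.9 and pandas 2.3.3 in Python 3.11.15.

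The members and the gene lists were chosen with earlier results of these data known. Named genes were the 10 members, up to 4 genes per list (the 2 largest called increases and 2 largest called decreases in WT with a mean CPM of at least 5), list genes called between genotypes or in the interaction, the nearest gene of each member, and Tnf. Genes of the stromal and neutrophil lists are given as counts, apart from Ly6g and Mpo. Egr3, Batf3 and Mpo were named beside the counts they belong to, after their values were seen, as was Batf beside the genotype counts. Some genes that this rule would name are not reported here.

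Each replicate number is also the batch number in the labels, which pairs libraries of one number. The deviations from group means of same-numbered libraries had r between -0.0631 and 0.0373 over 18 pairs, and 0 pairs were over 0.1. No 2 replicates agreed within sampling noise (chi-square of at least 3.73 per degree of freedom). Alternatives were DESeq2 1.42.0, RLE and upper-quartile scaling, other filters, a replicate block, the compared groups only, no fold change minimum, protein-coding genes, a small RNA covariate, and leaving out each library. Library totals without TMM scaling and the longest transcript as length were also tried.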

Additional observations from a re-analysis of the deposited data

Results flagged for a closer look

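For 2 of the 10 genes the response to LPS differed between the genotypes by a test of the difference itself, beside 16.8% of all genes at the same adjusted p. The log2 fold change with LPS was lower in KO than in WT by -0.60 for Junb (adjusted p 9.99e-04, edgeR) and by -0.68 for Jund (edgeR adjusted p 0.0235). In WT, Junb was higher with LPS by 0.40, and in KO it was lower (-0.20). Jund was at -0.21 in WT, which did not pass the adjusted p, and at -0.88 in KO. Its difference in response kept its sign but lost its adjusted p under 7 of 21 alternatives. Once the share of small structured RNAs entered as a covariate, the differences were 0.13 (SE 0.246) for Junb and 0.53 (SE 0.497) for Jund. Neither passed the adjusted p, and both SEs were larger than without the covariate, so this does not show that the differences are absent. Single libraries were not tested as outliers.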

How the results depend on the processing

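No member was called in a genotype comparison or in the interaction under any alternative that kept the fold change minimum. Without that minimum the counts of members were 8 (LPS in WT), 9 (LPS in KO), 4 (genotype after LPS), 2 (genotype without LPS) and 2 (interaction), and of all genes 11386, 11295, 2223, 3700 and 2611. A mean CPM of at least 1 left 117 genes called between the genotypes after LPS and 160 without LPS, and protein-coding genes alone left 186 called in the interaction, as fewer genes were tested. The replicate block (pairing by batch number) left 4, 3, 0, 0 and 0 members called and 8, 9, 4, 2 and 2 past the adjusted p, and it changed no call of a member. Over all genes the block left 164 called after LPS, 246 without LPS and 270 in the interaction, against 194, 283 and 335. The depth limits Fosl1, Fosb after LPS and Egr1.

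The small RNA covariate left 104 genes called after LPS, 130 without LPS and 103 in the interaction, and 5, 0 and 0 members past the adjusted p for LPS in KO, genotype without LPS and the interaction. It turned the sign of Atf3 (-0.047) and Egr2 (0.45) after LPS, of Jun (-0.19), Junb (-0.17), Jund (-0.55), Fosl1 (0.014) and Egr1 (0.19) without LPS, of Junb (0.24) and Egr2 (0.15) for LPS in KO, and of Junb (0.13), Jund (0.53) and Atf3 (-0.31) in the interaction. The cause was not tested.

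Library totals without TMM scaling, chosen after seeing the data, moved the median of all genes by -0.66 and -0.51 for LPS in WT and KO, -0.15 without LPS and 0.16 in the interaction, and gave 1687 genes called higher and 5455 lower for LPS in WT, against 2971 and 2899. They called 6 members for LPS in KO and left 1 past the adjusted p without LPS. They turned Fosl2 (-0.35) and Junb (-0.27) for LPS in WT, Fosl2 (-0.32) for LPS in KO, Fos (-0.060), Jun (-0.082) and Atf3 (-0.13) without LPS, and Fosl2 (0.024) and Egr1 (0.13) in the interaction. DESeq2 and RLE scaling gave -0.0029 for Jun and -0.048 for Atf3 without LPS and 0.052 for Egr1 in the interaction. Upper-quartile scaling gave -0.00086 for Fosl2 with LPS in KO. Without the filter, Egr1 was at 0.0016 in the interaction and Egr2 at 0.0020 after LPS.

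Over the fits that each left out 1 library, 2 to 5 members passed the adjusted p after LPS, 1 to 3 without LPS, 8 to 9 for LPS in KO and 1 to 2 in the interaction, where 197 (without WT LPS replicate 3) to 519 (without WT LPS replicate 1) genes were called. In these fits Egr1 ranged from -0.11 to 0.084 and Fosl1 from -3.53 to 1.77 in the interaction, Egr2 from -0.15 to 0.17 after LPS, and Fosl1 from -2.77 to 2.52 without LPS.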
